A study of Mus musculus with 21 samples.

Results

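The genes described here are the collagens and laminins of the mouse, as they appear in deposited lists of single-nucleotide variants (SNVs). Every line of the 18 lists was taken whose region was not intergenic and whose gene name was Col, a number, a, a number (such as Col6a3) or a laminin chain name (Lama, Lamb or Lamc followed by a number). This gave 240 distinct sites out of 19181 in the whole series, or out of 16971 within genes, and 1193 calls of these sites. The lists of tumours held 222 of the sites and 1095 of the calls, the lists of embryonic stem cells (ESCs) held 21 of the sites and 98 of the calls, and 3 sites stood in both. Col4a3bp, which is not a collagen, had 7 calls and was left out.

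The series asked how stable the genome of mouse ESCs is in different media, and sequenced DNA of 21 samples, all of the strain written C57BL6X129S6F1. ESCs came from 5 conditions with 2 libraries each, numbered 3 and 5. SL is serum medium (15% serum) with leukaemia inhibitory factor (LIF, 1000 IU), and the other 4 are N2B27 medium with the same LIF and 3 µM of the GSK3 inhibitor CHIR99021. 2iL adds 1 µM of the MEK inhibitor PD0325901, A2iL adds 1.5 µM of the Src inhibitor CGP77675, and LCDM adds 2 µM each of the compounds written Dim and Mih. SL, 2iL, A2iL and LCDM cells were kept on feeder cells, and 2iL-F is 2iL without feeders. The 8 tumours came from mice made of ESCs by tetraploid complementation, a method that gives animals built from the injected cells. Of these, 1 is named 2iL-P9, 3 are named A2iL-P9, 1 A2iL-P14, 2 LCDM-P9 and 1 2iL-F-P9. The age of the mice, the tumour type, what 3, 5, P9 and P14 stand for, and whether libraries of a group came from separate cultures or animals are not given in the sources used here. Each ESC list was made against mouse embryonic fibroblasts (MEFs) and each tumour list against the second of 2 wild-type blood samples.

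Collagens are secreted proteins of 3 chains wound around each other, and their helical stretches repeat a glycine, the smallest residue, at every turn. Fibrillar collagens make the tensile fibres of skin, bone and cartilage, type IV collagens make the sheet of the basement membrane, and FACIT collagens sit on the surface of fibrils. Laminins are cross-shaped trimers of an alpha, a beta and a gamma chain that bind cells to the basement membrane. Synonymous changes leave the protein as it is, and missense changes replace a residue.

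The LCDM-P9 2 tumour stood apart from the other 7. It had 41 calls in collagen and laminin genes against 144 to 156 in each of the others, from 3634 calls in all against 9752 to 10325. Its median alternative-allele fraction, the share of reads with the variant base, was 1 over these 41 calls, against 0.408 to 0.435 in the 7. Of the 41 calls, 25 lay in Col22a1, and the other 16 had a median of 0.507. Over all calls the median was 0.8 in LCDM-P9 2 and 0.429 to 0.436 in the 7. LCDM-P9 2 shared 5 sites with any of the others, and 36 of its 41 sites were called in no other tumour. Over all genes it had 3558 calls, and 11620 of the 14644 tumour sites were called in any of the 7. Most of its sites over all genes were thus also called in no other tumour. Values are therefore given for the 7 tumours and for LCDM-P9 2 separately. The median depth of a collagen or laminin call was 24 to 35 reads in the 7 tumours, 19 in LCDM-P9 2 and 17 to 37 in the ESCs. Intervals cover counting error only, and a site missing from a list was not shown to carry the reference base, since the lists hold calls only.

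The tumour sites lay in 24 of the 55 collagen and laminin genes of the RefSeq table, 20 of 44 collagens (148 sites) and 4 of 11 laminins (74 sites). That is 43.6% of them, where 15.6% of all protein-coding RefSeq genes had a tumour site; gene length was not taken into account. Few genes held most of them. Lama3 had 68 sites, Col4a1 41, Col28a1 35 and Col22a1 26, and the median gene with a site had 2, as did the median over all 3676 genes with a tumour site. Among those genes Lama3 ranked 2 by number of sites, Col4a1 11, Col28a1 21 and Col22a1 37. By class, laminin alpha chains held 72 sites in 3 of 5 genes, type IV collagens 49 in 3 of 6, FACIT collagens 35 in 5 of 9 and fibrillar collagens 13 in 6 of 11. The 3 laminin gamma genes and the 3 short-chain network collagens had no tumour call.

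**Figure D1:**
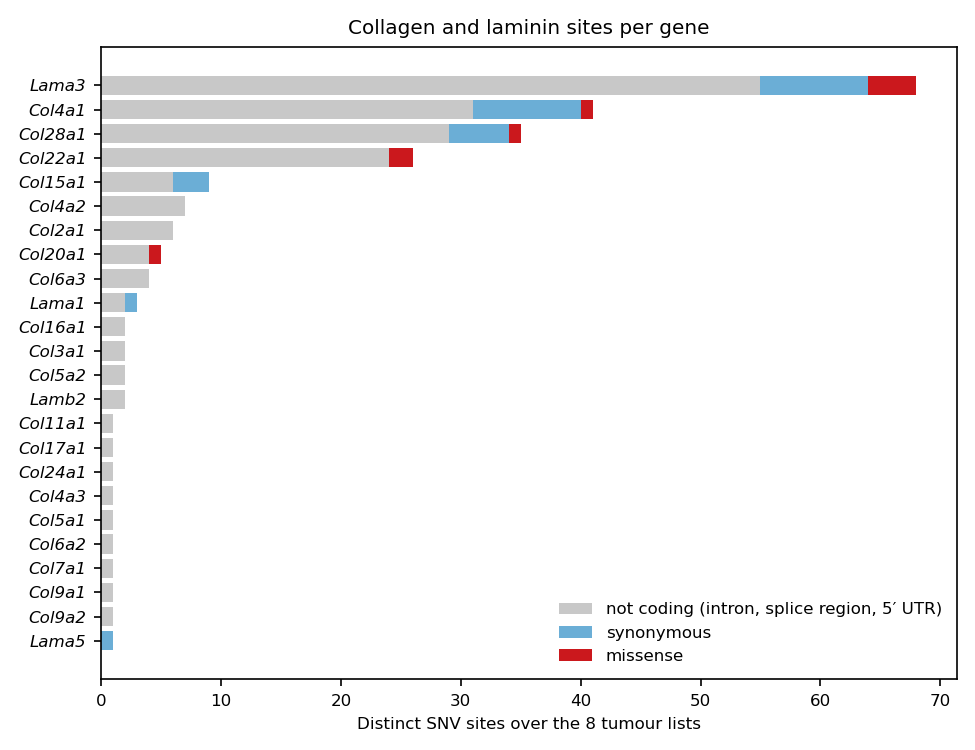
Number of distinct SNV sites over the 8 tumours (x axis) in each collagen and laminin gene with a site (y axis), split into sites outside the coding sequence, synonymous sites and missense sites. Lama3, with 68 sites, has 4 of the 9 missense sites, and most genes have only non-coding sites.

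Of the 222 tumour sites, 183 were intronic, 28 synonymous, 9 missense, 1 in a splice region and 1 in a 5′ untranslated region. Missense sites made up 9 of the 37 coding sites, 24.3% (95% Wilson interval 13.4 to 40.1%), where the share over all genes was 31.4%. Coding sites made up 16.7% of the sites, against 24.4% over all genes. In collagens the missense share was 22.7% (10.1 to 43.4%) and in laminins 26.7% (10.9 to 52.0%), intervals that overlap widely. An identifier of dbSNP, the catalogue of known variants, was given for 212 sites (95.5%), against 95.3% over all genes. Transitions made up 70.3% of sites against 72.1% over all genes, and repeats 6.76% against 6.16%. None of the 222 sites lay in a segmental duplication, against 3.89% over all genes. The interval of the missense share includes the share over all genes.

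None of the 5 missense sites in collagens replaced or created a glycine. Whether these sites lie in the helical stretches was not examined, and the share of glycine changes over all genes is not given here. The 17 synonymous collagen sites kept proline at 6 positions, glycine at 5, alanine at 2, arginine at 2, and isoleucine and leucine at 1 each. The 11 synonymous laminin sites were spread over 9 residues, with cysteine and histidine at 2 each. Protein positions count from the first methionine of the RefSeq transcript that the authors' annotation lists first.

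Type IV collagens were the richest collagen class. Col4a1 and Col4a2 encode the alpha chains of the collagen network found in nearly all basement membranes, and they lie head to head on chromosome 8. Col4a1 (GRCm38.p6, the assembly of mm10, 11198423 to 11312889) had 41 sites, of which 31 were intronic, 9 synonymous and 1 missense, and 27 were called in all 7 tumours. The median fraction of its sites common to the 7 was 0.417 to 0.516 per tumour, and the sites' own medians ran from 0.286 to 0.615. Col4a2 (11312805 to 11449287) had 7 intronic sites, 5 of them common to the 7, with a median fraction of 0.423 to 0.538 per tumour. Col4a3, a chain of the kidney filter and lung, had 1 intronic site.

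The Col4a1 missense site was P804T in exon 31 (C2410A, position 11221030). Its fraction was 0.583 in 2iL-P9, 0.462, 0.400 and 0.400 in the 3 A2iL-P9 tumours, 0.609 in A2iL-P14, 0.600 in LCDM-P9 1 and 0.444 in 2iL-F-P9. The named groups overlapped, the depths were only 9 to 24 reads, and the site was not called in LCDM-P9 2. The 9 synonymous sites were G145G, P167P, P587P, G609G, G625G, I760I, G882G, P1647P and R1656R. Of these, 8 were called in all 7 tumours, while I760I was missing from LCDM-P9 1 and had 0.350 to 0.714 in the other 6. P1647P had 0.156 in A2iL-P9 2 as its lowest value and 0.535 as its highest, at 32 to 56 reads.

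Lama3 carried most of the laminin sites. It encodes the alpha chain of the laminin that anchors skin and other epithelia to the basement membrane. The gene (chromosome 18, 12333417 to 12583013) had 68 sites, or 0.272 per kb, of which 55 were intronic, 9 synonymous and 4 missense. Of the 68 sites, 67 had a dbSNP identifier, 41 were common to the 7 tumours and 6 were called in 1 tumour. The median fraction of the 41 common sites was 0.400 to 0.457 per tumour, while single sites had medians from 0.171 to 0.538. LCDM-P9 2 had no call in Lama3 and none within 1 Mb of its sites. That window held another 131 sites in 13 other genes, 80 of them common to the 7.

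The Lama3 missense sites were V1849M, V3077A, S3090N and N2113S. V1849M (G5545A, exon 44, position 12519951) had fractions of 0.435 in 2iL-P9, 0.394, 0.447 and 0.466 in the A2iL-P9 tumours, 0.407 in A2iL-P14, 0.408 in LCDM-P9 1 and 0.508 in 2iL-F-P9, at 33 to 69 reads. V3077A (T9230C, exon 70, position 12574242) had 0.479, 0.426, 0.523, 0.425, 0.533, 0.500 and 0.515 in the same order, at 54 to 105 reads. S3090N (G9269A, also exon 70, position 12574281) had 0.478, 0.455, 0.522, 0.400, 0.560, 0.518 and 0.477, at 44 to 100 reads. These 3 sites were called in all 7 tumours with fractions that overlapped across the named groups. N2113S (A6338G, exon 50, position 12528323) differed from them, since it was called in A2iL-P9 2 alone, at 3 of 34 reads (0.088), with 0 variant reads among 67 of the control. Of the 9 synonymous Lama3 sites, 6 were common to the 7 tumours (L266L, H1124H, P1136P, N1493N, A2169A and D2171D). H1619H was missing from A2iL-P9 2, and C316C and C3327C were called in 2 tumours each, the latter at 0.118 and 0.143.

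The other laminin genes had 6 tumour sites. Lama1, the alpha chain of the earliest embryonic laminin, had 3, and its 2 intronic sites were called in all 8 tumours. The first had fractions of 0.346 to 0.588 and the second 0.360 to 0.800, with 0.514 and 0.552 in LCDM-P9 2. Lamb2, a beta chain of the kidney filter and the neuromuscular junction, had 2 intronic sites. One of them, common to the 7 tumours at 50 to 101 reads, had the narrow range of 0.449 to 0.531. Lama5, the alpha chain of many adult basement membranes, had 1 synonymous site, described with LCDM-P9 2.

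Col28a1, a collagen of peripheral nerve with von Willebrand factor A domains, had 35 sites (chromosome 6, 7997100 to 8193709), of which 14 were common to the 7 tumours. Its common sites had a median fraction of 0.309 to 0.411 per tumour, all 7 values below the 0.417 to 0.516 of Col4a1. The ranges of Lama3 (0.400 to 0.457), Col15a1 (0.370 to 0.518) and Col2a1 (0.316 to 0.471) overlapped that of Col28a1. Single Col28a1 sites had medians of 0.200 to 0.500. At 15 of the 35 Col28a1 sites the control had a variant read, where 37.4 to 38.2% of all calls per tumour did in the 7. The part of this in the fractions was not tested. V229I (G685A, exon 4, position 8169633) had 0.255 in 2iL-P9, 0.206, 0.229 and 0.378 in the A2iL-P9 tumours, 0.256 in A2iL-P14, 0.277 in LCDM-P9 1 and 0.257 in 2iL-F-P9, at 34 to 55 reads. It was lower in each of the 7 tumours than every common missense site of Lama3 and Col4a1 in that tumour. The splice-region site (position 8175162, next to exon 4) had 0.486, 0.529, 0.462, 0.514, 0.495, 0.535 and 0.418 in the same order, at 68 to 111 reads. The 5 synonymous sites were A43A and P586P, common to the 7, P547P in 5 tumours, and R626R and G630G in 4 tumours at 0.1 to 0.150.

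**Figure D2:**
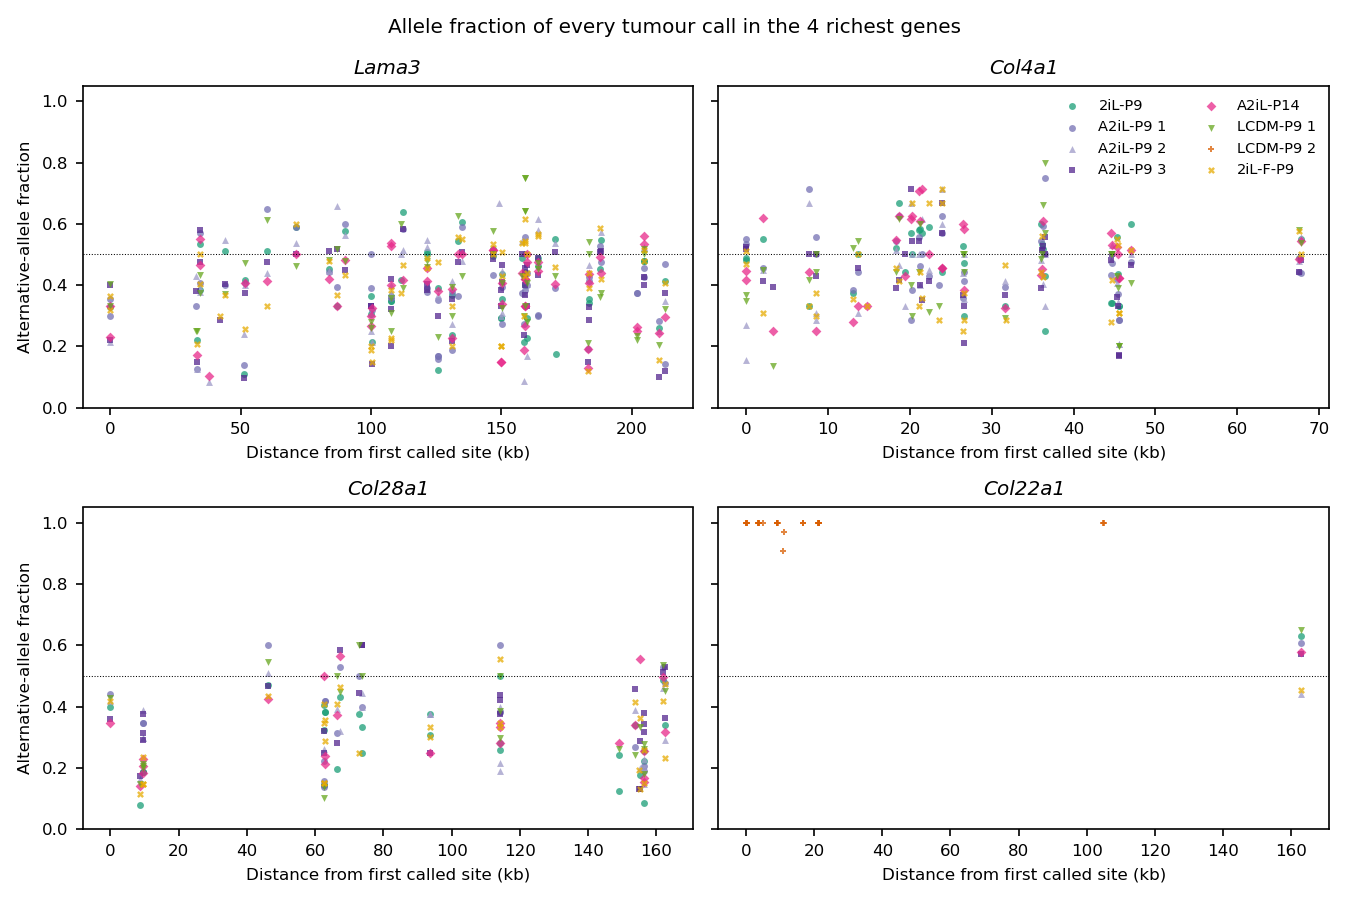
Alternative-allele fraction (y axis) of each tumour call against its distance from the gene's first called site in kb (x axis) in the 4 genes with the most sites; colour and shape give the tumour and the dotted line marks 0.5. Lama3, Col4a1 and Col28a1 have calls in the 7 tumours and none in LCDM-P9 2, whereas Col22a1 has 25 sites in LCDM-P9 2 alone, from 0.909 to 1.

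The remaining collagens with sites in the 7 tumours had almost only intronic sites. Col15a1, a multiplexin next to basement membranes, had 9 sites (chromosome 4), all common to the 7, with a median fraction of 0.370 to 0.518 per tumour. Its 3 coding sites were synonymous (P1077P, A1231A and L1233L), and A1231A had 0.400 to 0.518 at 35 to 56 reads. Col2a1, the cartilage fibril collagen, had 6 intronic sites, of which 5 were common to the 7, with site medians between 0.276 and 0.460. Col16a1, a FACIT collagen, and Col5a2, which controls fibril width, had 2 common sites each, and Col17a1, the transmembrane collagen of hemidesmosomes, and Col6a2 had 1 each. The Col6a2 site had 0.424 to 0.530 at 52 to 86 reads.

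Col22a1 set LCDM-P9 2 apart among the collagens. This FACIT collagen of muscle and tendon junctions (chromosome 15, 71795795 to 72150979) had 26 sites, 25 of them called in LCDM-P9 2 alone. At these 25 sites 416 of 418 summed reads carried the variant, 23 sites stood at a fraction of 1, and the lowest was 0.909, at depths of 4 to 39. The control had 0 variant reads at all 25, at depths of 8 to 81. The authors' genotype string read 0/1 at each of the 25 sites in spite of these fractions. The 2 missense sites were Q1304L (A3911T, exon 55, position 71820059), with 37 of 37 reads, and S1286P (T3856C, exon 54, position 71821959), with 31 of 32.

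The high fractions were not limited to Col22a1 on this chromosome. From 1 Mb before the first to 1 Mb after the last of the 25 sites LCDM-P9 2 had 8 other calls, none below 0.96. Extending this to the last of the 26 Col22a1 sites, which was not called in this tumour, gave 14 other calls, none below 0.875. Its chromosome 15 held 280 calls, and 200 of the 213 from position 58822823 on had a fraction of at least 0.9, up to position 95914070. That position is by choice the first with such a fraction, so the 67 calls before it are all below 0.9, and their median was 0.436. Over all calls in genes, 49% of those of LCDM-P9 2 reached 0.9, against 25 of its 41 collagen and laminin calls (61%), all 25 in Col22a1. In the 7 other tumours 0.197% of calls in genes reached 0.9, and so did 1 of 1054 collagen and laminin calls, an intronic Col3a1 site in A2iL-P14 (position 45340463, depth 2 to 6 over its tumours).

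The other 16 collagen and laminin calls of LCDM-P9 2 had fractions of 0.091 to 0.698 with a median of 0.507. Col20a1, a FACIT collagen on chromosome 2 (180983323 to 181017545), had 5 sites in this tumour alone. They included F876L (T2626C, exon 20, position 181003452), at 30 of 43 reads (0.698) with 1 variant read among 53 of the control, and 4 intronic sites at 0.400 to 0.586. Col6a3, a chain of the beaded filaments around cells, had 4 intronic sites, at 0.300, 0.444, 0.615 and 0.429. The 2 synonymous sites were S1532S of Lama1 (C4596T, exon 32), at 29 of 61 reads (0.475), and V554V of Lama5 (A1662T, exon 13), at 32 of 53 (0.604). Its coding sites were thus 3 missense and 2 synonymous, 60% missense (23.1 to 88.2%), and 2 of the 3 missense sites lay in Col22a1. The sites of the 7 others had 6 missense and 26 synonymous, 18.8% missense (8.89 to 35.3%). The intervals overlap. Over all genes the missense share of coding calls was 34.0% in LCDM-P9 2 and 29.1 to 29.7% in the 7 others. Each interval includes the share over all genes of its own tumours.

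**Figure D3:**
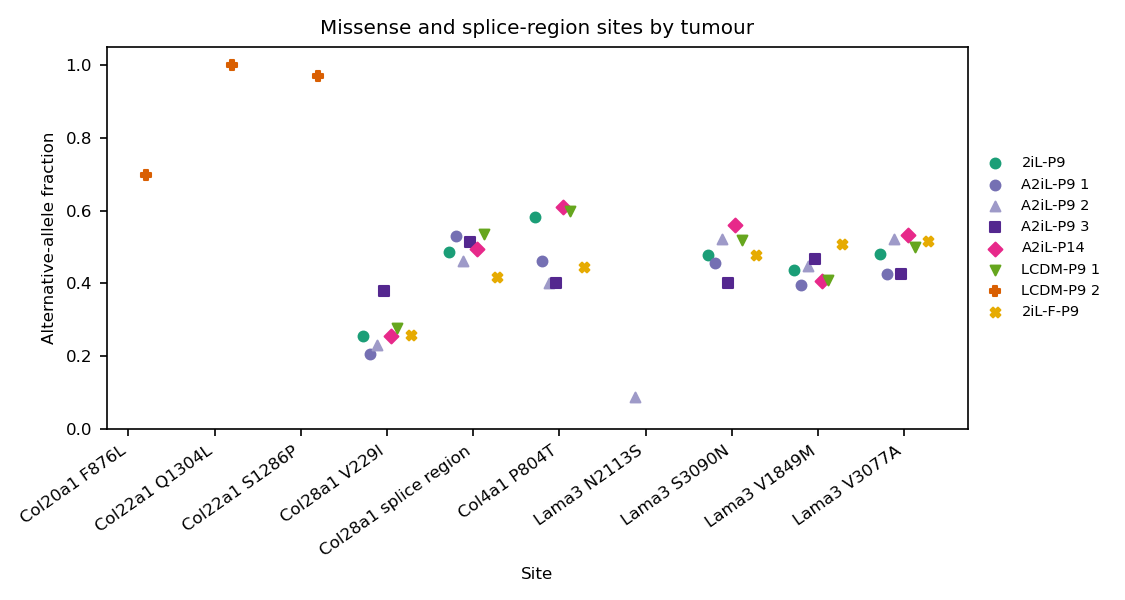
Alternative-allele fraction (y axis) of each missense site and of the splice-region site (x axis) in every tumour that had a call, with colour and shape for the tumour. P804T, V229I, V1849M, V3077A, S3090N and the splice-region site have 7 points each between 0.206 and 0.609, N2113S has 1 point at 0.088, and the 3 sites of LCDM-P9 2 lie between 0.698 and 1.

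One of the 240 sites fell in a promoter window of the RefSeq table (GRCm38.p6), which held 44 windows of 300 bases for 40 of the 55 genes, and none fell in a window of a collagen or laminin gene. The site is an intronic one of Col20a1 (chromosome 2, 181015933), called in LCDM-P9 2 at 0.400 and 6 reads, and it lies 237 bases before the start of Gm30797, a gene model on the minus strand. The stretch chr2:181015913-181015946 is shown on that strand because it lets the repeated letters around the site be seen, with the site's reference base in capitals:
Gm30797 promoter: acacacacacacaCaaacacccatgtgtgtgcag
The capital is the last c in a run of alternating a and c, and the authors' annotation marks the site as a repeat.

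Most sites of the 7 tumours were shared by all of them. Of the 186 sites called in any of the 7, 111 (59.7%) were called in all, against 64.5% of sites over all genes. Another 75 were called in 1 to 6, with a median fraction of 0.333 and a median depth of 16, against 0.444 and 34 for the 111. The 16 sites called in 1 of the 7 had a median fraction of 0.171. Median depth did not rise steadily with the number of tumours: it was 12 to 23 for 1 to 6 tumours and 34 for 7. The median fraction rose from 0.1365 at 2 tumours to 0.444 at 7. The part of depth in which sites were shared was not tested. Counting LCDM-P9 2, 52 of 222 sites (23.4%) were called in 1 tumour, against 26.3% over all genes.

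The 10 tumour sites without a dbSNP identifier fell into 2 kinds. In Col4a1 (G882G), Col22a1 (position 71974040, intronic) and Col28a1 (position 8022684, intronic) the site was called in all 7 tumours and also in all 10 ESC libraries. The other 7 were called in 1 to 3 tumours and in no ESC library. They lay in Lama3 (2 of 3 reads in A2iL-P9 2), Col9a1 (0.500 at 4 reads in 2iL-F-P9), Col11a1 (5 of 59 reads in LCDM-P9 1), Col24a1 (4 of 47 reads in LCDM-P9 1), Col4a3 (0.065 to 0.091 in 3 tumours) and Col7a1 (0.080, 0.195 and 0.357 in 3 tumours). The last was in the 5′ untranslated region of Col3a1, the fibril collagen of skin and vessels, in A2iL-P9 2 at 9 of 44 reads (0.205) with a mean base quality of 15. G882G was the only coding site among the 10.

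The 3 sites called in both sets had overlapping fractions in cells and tumours. G882G of Col4a1 had 0.444 to 0.593 in the 10 ESC libraries, at 29 to 81 reads, and 0.300 to 0.667 in the 7 tumours, at 6 to 16 reads. The Col22a1 site had 0.438 to 0.714 (11 to 20 reads) in ESCs and 0.440 to 0.650 (21 to 27 reads) in tumours. The Col28a1 site was lower in both, 0.111 to 0.300 (18 to 40 reads) in ESCs and 0.148 to 0.348 (23 to 34 reads) in tumours. At each of the 3 the ranges of cells and tumours overlapped, and the 10 and 7 values of the Col28a1 site all lay below those of the Col22a1 site. Of the sites in genes without an identifier that were common to the 7 tumours, 42.9% were in all 10 ESC libraries, here 3 of 3. Of the ESC sites in genes called in all 10 libraries, 8.88% were in all 7 tumours, here 3 of 5.

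**Figure D4:**
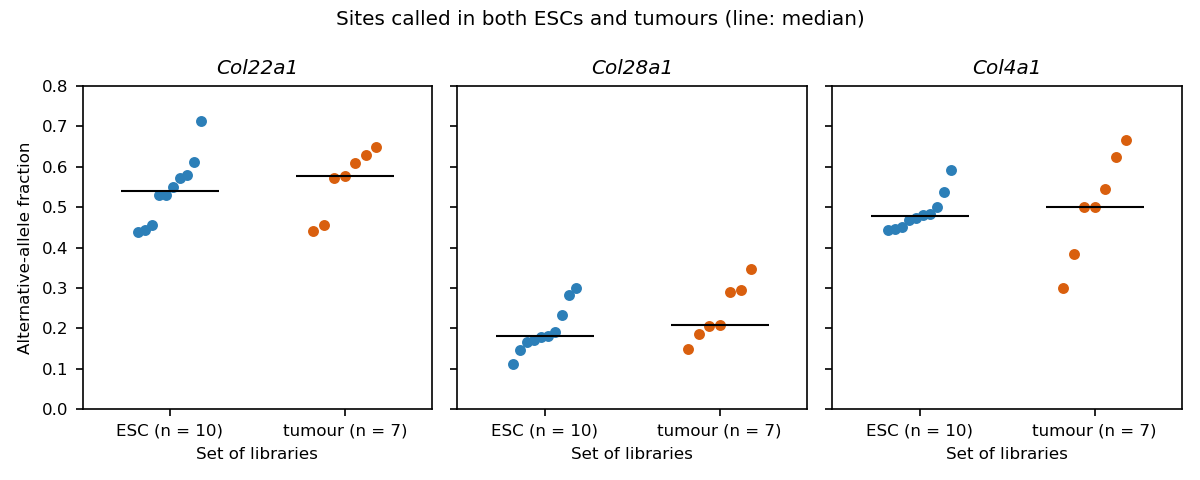
Alternative-allele fraction (y axis) of the 3 sites called in both sets, with a point per library for the 10 ESC libraries and the 7 tumours other than LCDM-P9 2 (x axis) and a line at the median. The points of ESCs and tumours overlap at each site, and the Col28a1 points lie between 0.111 and 0.348.

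In ESCs the 21 sites lay in 12 collagen and 3 laminin genes. How many of all genes had an ESC site was not counted, so these gene numbers stand without a background. No ESC site had a dbSNP identifier and all 98 calls had 0 variant reads in the MEF control. Over all calls of an ESC library, only 5.91 to 7.14% had a variant read in this control. The share of all ESC calls with an identifier is not given here. The ESC lists hold at most 1 call in 10 kb, so a site can be missing because another nearby was kept. Only at the Lamc1 sites 153305736 and 153305742 did libraries without the call have another within 10 kb (6 of 6 and 4 of 4). Of the 21 sites, 5 (23.8%) were called in all 10 libraries, against 17.5% over all genes, and 8 (38.1%) in 1 library, against 34.3%. Repeats held 8 of 21 sites (38.1%), against 21.2% over all genes, and segmental duplications 0, against 31.3%.

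Coding changes were rare in the ESCs. G882G of Col4a1 was the synonymous one, and T3117N of Lama2 (exon 64, chromosome 10, position 26981502) the missense one. Lama2 encodes the alpha chain of muscle and nerve laminin. T3117N was called in LCDM 3 alone, at 3 of 40 reads (0.075, exact Clopper-Pearson interval 0.0157 to 0.204), with 0 variant reads among 77 of the control. A fraction this low rests on 3 reads, and the site was not called in LCDM 5.

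Col7a1, the collagen of the fibrils that anchor skin to its dermis, had 2 intronic sites in all 10 libraries and in no tumour. The first (chromosome 9, position 108965129) had 0.315 to 0.569 at 61 to 103 reads. The second (position 108980421) varied more. Its fraction was 0.706 and 0.500 in 2iL-F (libraries 3 and 5), 0.593 and 0.571 in 2iL, 0.513 and 0.452 in A2iL, 0.595 and 0.316 in SL, and 0.125 and 0.267 in LCDM, at 27 to 42 reads. Both LCDM libraries were the lowest of the 10. LCDM 3 had 4 of 32 reads (interval 0.0351 to 0.290), LCDM 5 had 8 of 30 (0.123 to 0.459), and SL 5, the next, had 12 of 38 (0.175 to 0.487), whose interval overlaps both. This site was singled out after its values were seen, so no test is given.

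Other collagen sites of the ESCs were intronic. Col24a1, a fibrillar collagen, had a site in 9 libraries (all but SL 3) at 0.188 to 0.417, and Col5a3 one in 6 libraries at 0.158 to 0.462 in a repeat. The Col14a1 site was called in the 2 SL libraries and in no other, at 0.286 and 0.667, but with 2 variant reads each at depths of 7 and 3, in a repeat. Col16a1 had 2 sites in 1 library each (0.214 and 0.333), Col6a4 also 2 (0.400 and 0.118), and Col17a1 (0.381), Col23a1 (0.139) and Col27a1 (0.400) had 1 each. Of these 7 sites of single libraries, 3 were in A2iL 3 (Col17a1, Col27a1 and Col6a4), 2 in A2iL 5 (Col16a1 and Col23a1), 1 in LCDM 5 and 1 in 2iL-F 3.

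Lamc1, which encodes the gamma chain of most laminins, had 3 intronic sites in ESCs and none in tumours. The sites at 153305736 and 153305742 (chromosome 1) were never called in the same library. The first was called in SL 5, 2iL 5, LCDM 3 and 2iL-F 3 at 0.104 to 0.150, and the second in the other 6 libraries at 0.101 to 0.168, at depths of 74 to 109. Calls closer than 10 kb do not occur together in an ESC list, and the pair together covers all 10 libraries. The third Lamc1 site was in 5 libraries at 0.318 to 0.450, in a repeat. Lama2 had a further intronic site in 5 libraries, at 0.286 to 0.750 with 4 to 12 reads. Lama3 had a repeat site in 3 libraries (position 12518876, 0.200 to 0.250), close to a tumour site at 12518874 that had no identifier either.

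**Figure D5:**
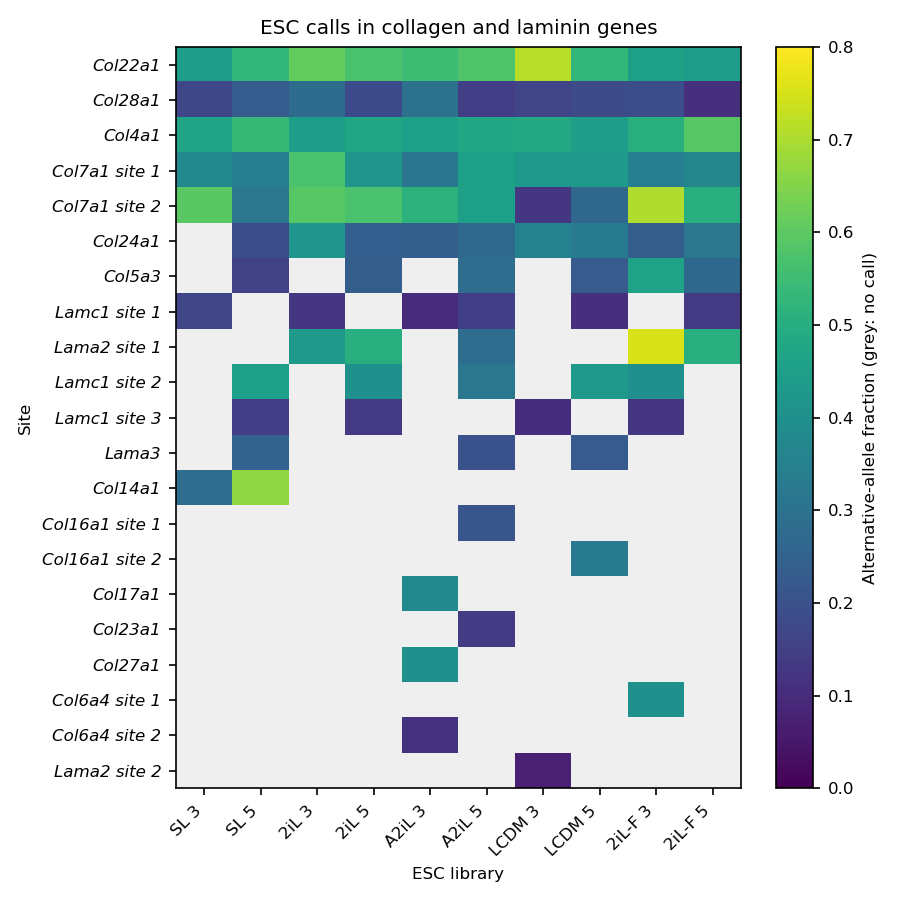
Alternative-allele fraction (colour scale, grey where there was no call) of the 21 ESC sites (y axis, ordered by the number of libraries) in the 10 ESC libraries (x axis); numbered sites tell apart sites of a gene. The first 5 rows are called in all 10 libraries, Col7a1 site 2 is lowest in LCDM 3 at 0.125, and Lamc1 sites 1 and 3 alternate.

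The first comparison the design implies is between the 5 ESC media. Libraries 3 and 5 of A2iL had 10 and 13 collagen and laminin calls, those of 2iL-F 11 and 9, those of LCDM 8 and 11, those of SL 7 and 11 and those of 2iL 8 and 10. The mean was highest for A2iL at 11.5 ± 2.12, followed by 2iL-F at 10 ± 1.41, LCDM at 9.5 ± 2.12, SL at 9 ± 2.83 and 2iL at 9 ± 1.41 (SD, n = 2 each). The conditions overlapped over all calls, and their means lay within the spread of the libraries (exact permutation test of F over 945 arrangements, one-sided, p = 0.733, smallest possible 0.00106). F was larger once low-depth calls or repeats were left out, and no setting run passed 0.05. With at least 20 reads, A2iL had 9 and 8 calls and the other 8 libraries 5 or 6 (F 12.8, exact permutation p = 0.0857). Outside duplications and repeats, A2iL had 9 and 9 and the others 6 to 8 (F 9.25, exact permutation p = 0.0952). Both A2iL libraries were the highest of the 10 in either setting. Their calls there included sites of a single library with low base quality. These were Col17a1 (14) and Col6a4 (27, position 106071826) in A2iL 3 and Col23a1 (24) in A2iL 5. With a base quality of at least 30 as the only filter, F was 0.383 (exact permutation p = 0.810). Collagen and laminin calls were 0.386 to 0.714% of all calls of a library.

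The second comparison is between the 3 A2iL-P9 tumours and the other 4 P9 tumours. The A2iL-P9 tumours had 149, 144 and 156 collagen and laminin calls, and the others 154 (2iL-P9), 147 and 41 (LCDM-P9 1 and 2) and 154 (2iL-F-P9). The means were 150 ± 6.03 (SD, n = 3) and 124 ± 55.4 (SD, n = 4), a difference of 25.7 (exact two-sided permutation test, p = 0.829). Without LCDM-P9 2 the second mean was 152 ± 4.04 (n = 3) and the difference turned to -2 (exact p = 0.7). With 3 against 4 the smallest possible p is 0.0286, and with 3 against 3 it is 0.1, so the latter cannot pass 0.05. A2iL-P14 had 150 calls and no replicate.

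Missense shares and fractions of the same tumours also lay within their spread. After Benjamini-Hochberg adjustment over the 3 tumour comparisons each exact permutation p was 0.857. Missense calls were 19.0 ± 3.55% of the coding calls of the A2iL-P9 tumours and 27.9 ± 21.4% of those of the other 4 (exact permutation p = 0.857). Without LCDM-P9 2 the second share was 17.3 ± 0.595%, and the difference of -8.95 points turned to 1.74 (exact p = 0.9). In the 7 tumours the share was 16.7 to 23.1% per tumour, and over all genes it was 29.1 to 29.7%. The tumours share most of these sites, so their shares are not separate observations, and the interval over the sites of the 7 (8.89 to 35.3%) includes the share over all genes. The median fraction was 0.414 ± 0.00404 against 0.568 ± 0.288, a difference of -0.153 (exact permutation p = 0.543), and without LCDM-P9 2 the second mean was 0.424 ± 0.0133 and the difference -0.00933 (exact p = 0.4).

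Genes that work with collagens and laminins were counted from lists of related genes, beside shares over all genes of 64.5% for sites common to the 7 tumours and 31.4% for missense among coding sites. Of 36 collagen-modifying enzymes in the RefSeq table, 8 had 31 tumour sites, 17 of them common to the 7 tumours (54.8% of those called in any of the 7), with 2 missense and 6 synonymous (25% missense). Bmp1, which cuts procollagen, had 16. Of 22 collagen and laminin receptors, 3 had 24 sites, 16 of them common (69.6%), with 2 missense and 7 synonymous (22.2%), and Bcam, a laminin receptor, had 15. Of 31 other basement membrane and matrix genes, 12 had 85 sites, 29 of them common (69.0% of those called in any of the 7), with 7 missense and 19 synonymous (26.9%). Hspg2, the basement membrane proteoglycan perlecan, had 41 sites and none was common to the 7 tumours. Only 42 of the list's 85 sites were called in any of the 7, and 29 of these were common sites of other genes. Most Hspg2 sites were therefore called in LCDM-P9 2 alone. Fras1, which holds skin to the basement membrane, had 13 sites with 11 common. Genes with a tumour site made up 22.2, 13.6 and 38.7% of the enzyme, receptor and matrix lists. Among all protein-coding RefSeq genes it was 15.6%, and gene length was not taken into account. In ESCs these lists had 8, 3 and 8 sites in 5, 2 and 8 genes, for which no share over all genes is given.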

How the data were processed

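DNA captured with Agilent SureSelect, per the labels' protocols, was read from 18 SNV lists. The series' design text names ATAC-seq for the tumours while its title names exome sequencing, so their assay is not settled here. The submitters' processing notes name BWA, SAMtools, Picard and the build mm10, but neither versions nor the SNV caller. Each deposited line, per the file headers, holds a genotype string with reads per allele, base quality, depth and alternative-allele fraction of a library and its control. All deposited lines were marked as passing and somatic. The control nevertheless had variant reads at 38.3 to 41.3% of the collagen and laminin calls of 7 tumours and at 12.2% in LCDM-P9 2. Over all calls these shares were 37.4 to 38.2% and 17.1%. The authors' annotation gave gene, region, protein change, repeats, segmental duplications and dbSNP build 142 identifiers.

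A site is a chromosome, position, reference and alternative base. Coordinates of genes come from RefSeq (GRCm38.p6). Tumours recorded as 2iL-P9 and 2iL-F-P9 carry other names in their headers (starting with F and Q), and their sample was taken from the deposited file record.

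Analyses used Python 3.11.15, pandas 2.3.3, numpy 2.4.6, SciPy 1.17.1 and matplotlib 3.10.9. Exact permutation tests over libraries were tested on simulated data, and p values below 0.05 were to be called. The 3 tumour comparisons were adjusted together (Benjamini-Hochberg). The alternatives were a depth of at least 20, a base quality of at least 30, no repeats or duplications, no control variant reads, the first gene name alone, each library left out, and pairing by label number. P-values measure only the spread between these libraries, which may be technical. The genes and lists were chosen with earlier results of these data known. Named were genes with ESC calls, the genes with most missense sites, splice, stop, glycine and unidentified coding sites, sites in both sets, coding sites of LCDM-P9 2 alone and coding sites missing from 1 of the other 7 tumours. Other genes with values were chosen after the values were seen.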

Additional observations from a re-analysis of the deposited data

How the results depend on the processing

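Leaving out LCDM-P9 2 reversed the difference in call number between the A2iL-P9 and the other P9 tumours to -2 and that in missense share to 1.74. With at least 20 reads the difference in median fraction was -0.0573 (exact p = 0.314) and that in call number 13.5 (exact p = 0.886). Requiring 0 variant reads in the control left 5 missense sites and 58 sites common to the 7 tumours. Leaving out each tumour in turn, the difference in call number ran from -2 to 35.7, in missense share from -12.7 to 1.74 and in median fraction from -0.206 to -0.00933, with exact p from 0.1 to 0.933. Such designs cannot reach 0.05, since the smallest possible p is 0.1 for 3 against 3 tumours and 0.0667 for 2 against 4, so they say nothing about the side of the threshold. The 0.1 belongs to the median fraction without 2iL-F-P9 (-0.206). For the ESC call number F rose from 0.512 to 12.8 with at least 20 reads (exact p = 0.0857) and to 9.25 outside duplications and repeats (exact p = 0.0952). With a base quality of at least 30 it was 0.383 (exact p = 0.810). Leaving out each ESC library, F ran from 0.104 to 1.15 (exact p 0.489 to 0.981). Labels 3 and 5 are not said to pair the libraries. With them as a replicate block, F was 0.977 (exact permutation p = 0.6, smallest possible 0.00833), and the library numbered 5 had more calls than its partner in 4 of 5 conditions. Depth limits single fractions: at the Col4a1 site P804T they rest on 9 to 24 reads.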
